A study of Mus musculus with 2 samples.

Results

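The genes described here build the enzyme system that cuts and crosslinks the matrix of the mouse heart. They are the matrix metalloproteinases (Mmp), the ADAMTS proteases and the ADAMTS-like proteins, the tissue inhibitors of metalloproteinases (Timp) and the lysyl oxidases. They were chosen by symbol alone, as every gene whose name begins with Mmp, Adamts, Timp or Loxl and a number, or with Adamtsl, or is Lox, and that has at least 1 protein-coding transcript in GENCODE M21. The rule gave 56 of the 55536 genes measured: 23 Mmp, 19 Adamts, 5 Adamtsl, 4 Timp and 5 lysyl oxidase genes.

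Total RNA reduced of ribosomal RNA was sequenced from hearts of male B6CASTF1/J mice, F1 hybrids of B6 and CAST parents from The Jackson Laboratory, at 2 months. The labels give 1 group with 2 biological replicates, 1 library each, from 300 ng of RNA, and no treatment, mutation or second tissue. The labels number the males separately but give them the same donor entry, so that they are 2 mice is a reading of the labels. With 1 group there was no contrast to test, and the results are levels with their spread (SD, n = 2), the folds between genes of 1 library, and how far the hearts stood apart.

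Matrix metalloproteinases and ADAMTS proteases are secreted or membrane-bound enzymes that hold a zinc ion in the active site and are made as inactive precursors. Timp proteins bind the active site and block it. Lysyl oxidases are copper enzymes that start the crosslinking of collagen and elastin. In the heart this system is best known for the remodelling that follows injury or overload, and the levels below are those of hearts with no labelled injury.

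The shared catalytic chemistry was visible in the coding sequence. The zinc-binding stretch was searched as codons for histidine, glutamate, 2 of any kind, histidine, 5 of any kind and histidine. It was found in 42 of 42 Mmp and Adamts genes and in 0 of 5 Adamtsl genes, which encode proteins with no protease domain. Among 21853 nuclear protein-coding genes searched, 0.439% held the stretch. It is shown for the 6 proteases highest in mean TPM and for Mmp9, the other gelatinase beside Mmp2, with the codons of the zinc-binding histidines and the catalytic glutamate in capitals.
Mmp2: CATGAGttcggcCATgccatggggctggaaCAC
Mmp15: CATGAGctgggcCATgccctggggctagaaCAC
Mmp14: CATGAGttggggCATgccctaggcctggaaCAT
Mmp9: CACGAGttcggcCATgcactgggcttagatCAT
Adamts1: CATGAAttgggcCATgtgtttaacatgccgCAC
Adamts7: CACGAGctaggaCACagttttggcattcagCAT
Adamts10: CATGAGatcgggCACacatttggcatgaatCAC

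These stretches are given on the coding strand from the GENCODE M21 transcripts (mm10). Those of Mmp2 and Mmp15 lie at chr8:92839279-92839311 and chr8:95368585-95368617, that of Mmp14 at chr14:54437627-54437659 and that of Mmp9 at chr2:164951133-164951165, each inside 1 coding exon of the forward strand. In Adamts1, on the reverse strand, the stretch runs over chr16:85799191-85799213 and chr16:85799536-85799545. In Adamts7 it runs over chr9:90179456-90179472 and chr9:90180625-90180640, and in Adamts10 over chr17:33538157-33538173 and chr17:33538264-33538279. This split was general: an intron broke the stretch in 19 of 19 Adamts genes and in 0 of 23 Mmp genes.

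The Timp inhibitors share a different stretch, the cysteines near the start of the mature protein, where the inhibitor enters the active site. It was searched as cysteine, 1 of any kind, cysteine, 3 of any kind, histidine, proline, 4 of any kind and cysteine. It occurred in 4 of 4 Timp genes, each time inside 1 exon, and in 0.0183% of the genes searched, with no gene outside the family. It is shown for the whole family, with the cysteine codons in capitals.
Timp3: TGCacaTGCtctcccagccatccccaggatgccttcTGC
Timp2: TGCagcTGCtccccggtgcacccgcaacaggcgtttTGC
Timp4: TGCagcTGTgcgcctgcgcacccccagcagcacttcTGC
Timp1: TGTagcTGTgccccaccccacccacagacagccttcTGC

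They lie at chr10:86300923-86300961 (forward) for Timp3, chr11:118354974-118355012 (reverse) for Timp2, chr6:115251653-115251691 (reverse) for Timp4 and chrX:20871111-20871149 (forward) for Timp1. The copper-binding stretch of the lysyl oxidases, with its histidine codons in capitals, was found in 5 of 5 genes and in 0.0229% of the genes searched. It was split over 2 exons in all 5 and is shown for the most abundant pair, since both were measured well above 1 TPM.
Loxl1: tggCATagctgtCACcaaCATtacCAC
Loxl2: tggCACgactgcCACaggCACtacCAC

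The Loxl1 stretch lies at chr9:58293720-58293729 and chr9:58294359-58294375 (reverse), and that of Loxl2 at chr14:69682322-69682338 and chr14:69689028-69689037 (forward). In every stretch shown, the capitals mark codons for residues that the search required, so their sameness across a family is by construction. Many of the bases between them differ from gene to gene.

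Inhibitors were the most abundant group of the system, and proteases other than Mmp2 and Mmp15 stayed under 15 TPM. Levels are in TPM, a length-corrected share of the transcripts in a library, and bulk TPM cannot tell fewer cells of a type from less RNA per cell. A gene is called detected at 1 TPM or more in both mice. By that rule 27 of the 56 genes were detected, 27 of 55 (49.1%) without Mmp1a, whose gene is annotated as a polymorphic pseudogene, beside 49.8% of all nuclear protein-coding genes. At the other end, 8 of 56 were listed at 0 TPM in both mice, 7 of 55 (12.7%) beside 25.2% of all protein-coding genes. Their median level was 0.975 ± 0.0495 TPM, against 1.08 TPM over all protein-coding genes. A mean of 10 TPM or more was reached by 7 genes, 21 had 1 to 10 TPM and 28 were under 1 TPM. Just inside the 1 TPM line were Timp1 and Mmp19, with 1.03 and 1.07 TPM in their lower mouse. Just outside it were Adamts8, at 0.96 and 1.37 TPM, and Adamtsl1, at 0.71 and 0.92 TPM.

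The libraries held 38963569 and 44321172 expected counts in genes, of which the 56 genes took 30567 (0.0785%) and 37389 (0.0844%). Heart identity was clear, since 6 of 6 cardiomyocyte markers were detected with a median of 3853 TPM. Fibroblast, endothelial, macrophage and pericyte or smooth muscle markers were also detected in 6 of 6 each. Cartilage markers were detected in 1 of 6, with Acan at 0.0900 TPM.

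**Figure D1:**
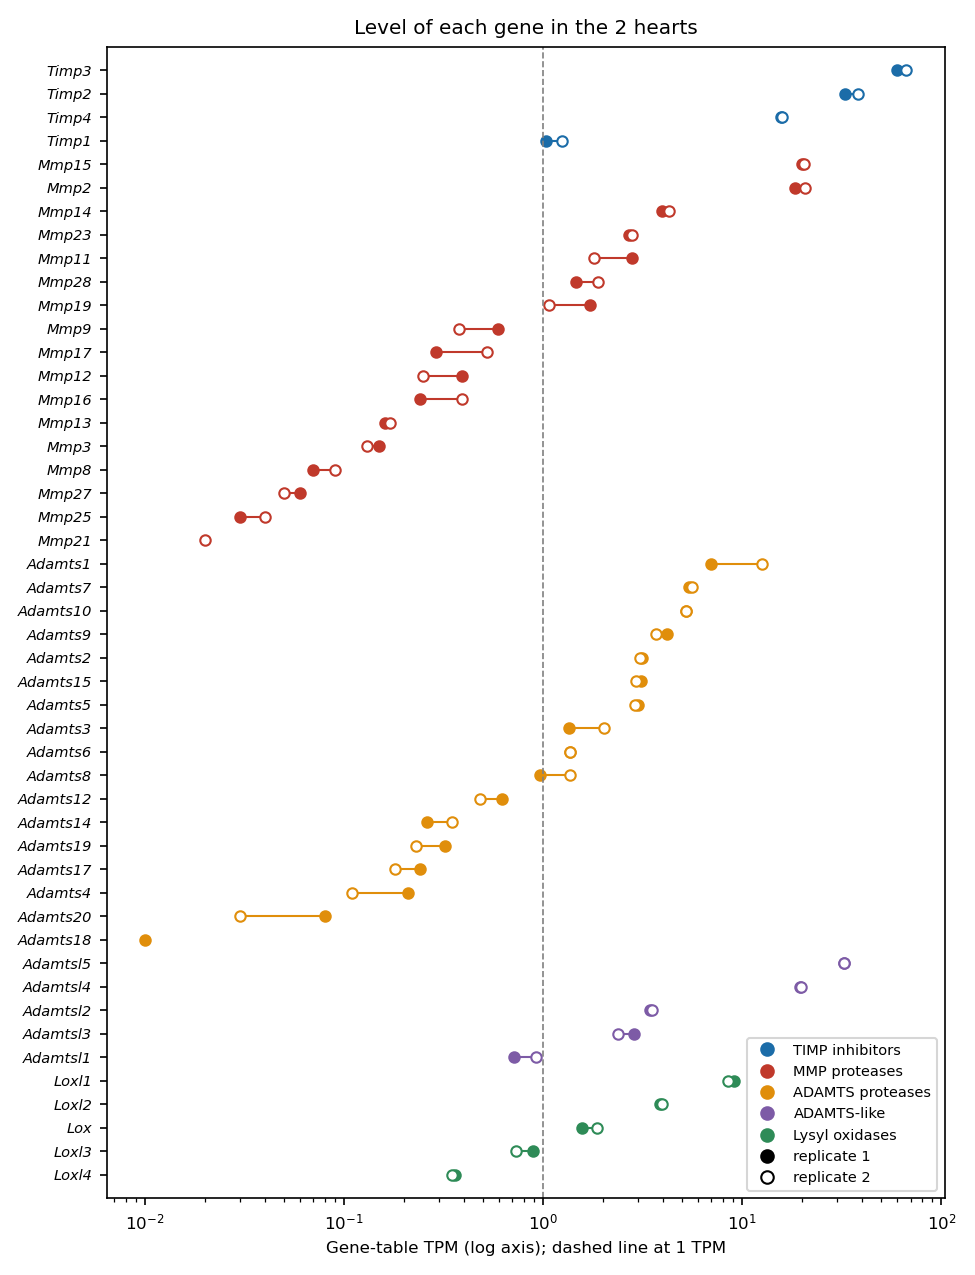
TPM of each gene in replicate 1 (filled) and replicate 2 (open) on a log axis, by family and in falling order, with a dashed line at 1 TPM. The 48 genes above 0 TPM in at least 1 mouse are drawn. A reader should see Timp3 alone above 60 TPM, and the Mmp and Adamts families each spreading from above the line to far below it.

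Timp3, the inhibitor that stays bound to the matrix and also blocks ADAMTS and ADAM proteases, was the highest of all 56 genes. Its level was 60.02 TPM in replicate 1 and 66.8 TPM in replicate 2 (63.4 ± 4.79), which placed it 866th of 22015 protein-coding genes. Timp2, which blocks Mmp enzymes and takes part in the activation of pro-Mmp2 by Mmp14, followed at 33.0 and 38.0 TPM. Timp4, an inhibitor known for its expression in heart, had 15.6 and 15.9 TPM. These values did not overlap between the 3 genes, and Timp3 was 1.79 ± 0.0444 times Timp2. Timp1, the inhibitor best known for its induction by injury and cytokines, was far lower at 1.03 and 1.24 TPM. It rested on 25 and 33 expected counts, and Timp4 was 14.0 ± 1.63 times as high.

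The order Timp3, Timp2, Timp4, Timp1 was the same in the second transcript table, in which reads were quantified without the aligned file. Its distances differed. There Timp2 reached 52.2 and 60.9 TPM, so that Timp3 was 1.24 times Timp2 and Timp2 was 3.98 times Timp4, against 2.25 ± 0.194 in the gene table. The whole Timp family summed to 109.6 and 121.9 TPM, 40.8 ± 1.10% of the TPM of all 56 genes. For Timp3, 21.3% of the exonic bases are shared with Syn3 on the opposite strand. Whether counting used strand is not stated, and Syn3 itself was listed at 0.15 and 0.12 TPM.

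Among the 23 Mmp genes, 7 were detected, and a pair of them carried most of the family. Mmp15, a membrane-anchored protease (MT2-MMP), had 20.0 and 20.5 TPM. Mmp2, the secreted gelatinase A, which cuts denatured collagen and basement membrane collagen, had 18.4 and 20.6 TPM. The values of Mmp15 and Mmp2 overlapped, so their order is not set by these data. Mmp14 (MT1-MMP), the cell-surface activator of pro-Mmp2, had 3.93 and 4.28 TPM, and Mmp15 was 4.93 ± 0.209 times as high. Timp2 exceeded Mmp14 by 8.63 ± 0.346 times and Mmp2 by 1.82 ± 0.0362 times, the latter rising to 2.99 times in the second table.

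The other detected Mmp genes lay between 1 and 3 TPM. Mmp23, a type II membrane protease, had 2.70 and 2.78 TPM. Mmp11 (stromelysin 3), unusual in being activated inside the cell by furin, had 2.79 and 1.81 TPM. Mmp28 (epilysin) had 1.47 and 1.89 TPM, and Mmp19 had 1.72 and 1.07 TPM. Between the mice, Mmp11 and Mmp19 were higher in replicate 1 and Mmp28 in replicate 2. The Mmp11 difference was in TPM far more than in counts, which were 118 and 124: in replicate 1 a 335-base decay transcript (Mmp11-203) was listed at 0.97 TPM and in replicate 2 at 0 TPM. Opposite-strand exons cover 22.3% of the exonic bases of Mmp19 (Tmem198b, 1.97 ± 0.219 TPM) and 5.58% of those of Mmp11 (Chchd10, 753 ± 42.0 TPM), and the share of their counts that came from these partners was not tested.

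Several proteases known from injured or inflamed tissue were low or at 0. Mmp9 (gelatinase B), which neutrophils and macrophages carry, had 0.59 and 0.38 TPM from 56 and 39 counts. Mmp2 was 31.2 and 54.3 times Mmp9 in the 2 mice, and 24.3 times on average in the second table. Of the 4 collagenases none was detected: Mmp13 had 0.16 and 0.17 TPM, Mmp8 0.07 and 0.09 TPM, and Mmp1a and Mmp1b were listed at 0 expected counts. Among stromelysins and matrilysin, Mmp11 was detected, Mmp3 had 0.15 and 0.13 TPM, and Mmp10 and Mmp7 were at 0. Membrane-type proteases other than Mmp15 and Mmp14 were lower: Mmp17 had 0.29 and 0.52 TPM, Mmp16 0.24 and 0.39 TPM, Mmp25 0.03 and 0.04 TPM, and Mmp24 was at 0. Mmp20 (enamelysin), known from tooth enamel, was also at 0. A count of 0 allows up to 0.0770 and 0.0677 CPM in the 2 libraries, taking 3 counts as the limit.

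Many of the Mmp genes that were not detected, 10 in all, lay in 1 chromosomal cluster. The Mmp13, Mmp12, Mmp1b, Mmp3, Mmp1a, Mmp10, Mmp8, Mmp27, Mmp20 and Mmp7 genes lie side by side within 427 kb, at chr9:7272514-7699585 (mm10), with no other protein-coding gene between them. Of these 10 genes 0 were detected and 5 were at 0 TPM in both mice. The highest was Mmp12, the macrophage metalloelastase, at 0.320 TPM on average (11 and 12 counts). Of the 13 Mmp genes elsewhere in the genome, 7 were detected, and Mmp9, Mmp17, Mmp16, Mmp25, Mmp21 and Mmp24 were not. Mmp1a and Mmp1b shared 14.5% and 20.7% of their 31-base words with another gene, chiefly each other, and Mmp3 and Mmp10 14.6% and 11.9%, so counts within these pairs are uncertain. Other related genes stood side by side at higher levels: Adamts1 (9.77 TPM) lies 53.1 kb from Adamts5 (2.94 TPM) on chromosome 16, and Adamts15 (3.01 TPM) 20.1 kb from Adamts8 (1.17 TPM) on chromosome 9. In contrast, Adamts13 at 0 TPM lies 69.8 kb from Adamtsl2 at 3.48 TPM on chromosome 2.

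Together the Mmp genes summed to 53.0 and 55.0 TPM. The summed Timp level was 2.07 times the summed Mmp level in replicate 1 and 2.22 times in replicate 2 (2.14 ± 0.105). Summed inhibitor RNA was thus above summed Mmp RNA in both mice, and in the second table by 2.51 times. Protein was not measured.

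**Figure D2:**
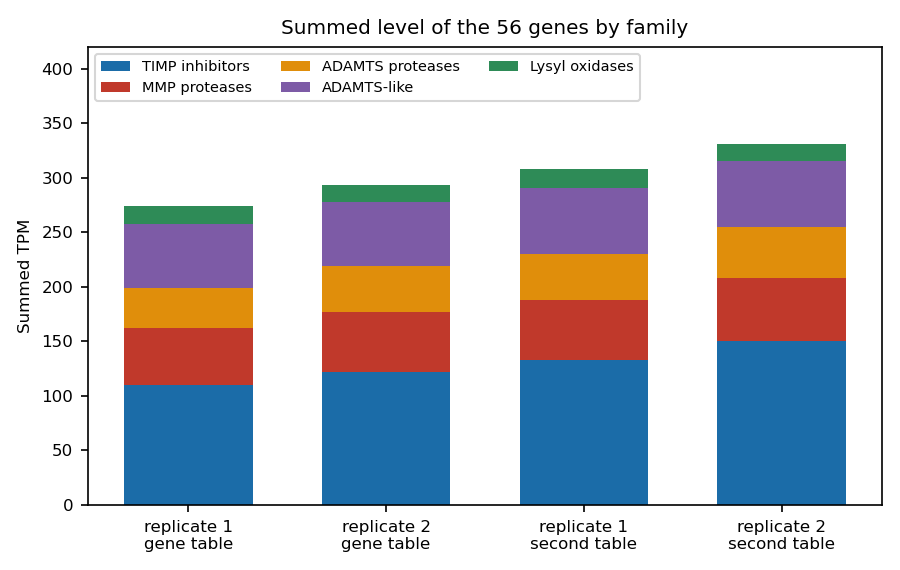
Summed TPM of the 56 genes by family in each mouse, from the gene table and from the second transcript table, as stacked bars starting at 0. The Timp genes form the largest block in all 4 bars, 109.6 and 121.9 TPM in the gene table and 133 and 150 TPM in the second table.

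The ADAMTS proteases were spread more evenly, with 9 of 19 detected and none as high as Mmp2. They summed to 36.4 and 42.1 TPM, 13.8 ± 0.737% of the system. The proteoglycan-cutting group, which cleaves versican, aggrecan and their relatives, was led by Adamts1 at 6.95 and 12.6 TPM (1031 and 2026 counts). Among genes with a mean of at least 50 counts, Adamts1 was also the one in which the 2 mice stood farthest apart. Adamts9 had 4.21 and 3.69 TPM, Adamts15 3.10 and 2.92 TPM, and Adamts5 3.00 and 2.88 TPM. Adamts4 and Adamts20 were near the bottom, Adamts4 with 28 and 16 counts, so that the classical aggrecanase pair Adamts4 and Adamts5 was represented almost wholly by Adamts5. Adamts1 was 33.1 and 114 times Adamts4 in the 2 mice.

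Procollagen N-proteinases, which trim the amino end of fibrillar procollagens, were detected in 2 of 3. Adamts2, the main enzyme for procollagen I, had 3.14 and 3.07 TPM. Adamts3, known for processing pro-Vegfc and procollagen II, had 1.35 and 2.03 TPM, and Adamts14 had 0.26 and 0.35 TPM. Adamts2 was 10.4 ± 2.34 times Adamts14 and 1.92 ± 0.575 times Adamts3, and its values did not overlap those of either. Adamts7, a protease of cartilage oligomeric matrix protein linked to vascular disease, had 5.40 and 5.57 TPM, and its closest relative Adamts12 had 0.62 and 0.48 TPM. Adamts7 was 10.2 ± 2.05 times as high.

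The fibrillin-binding pair was also uneven. Adamts10, known from Weill-Marchesani syndrome, had 5.23 and 5.22 TPM, and its relative Adamts6 had 1.36 and 1.37 TPM, a ratio of 3.83 ± 0.0250. The values within each gene were almost the same in both mice. Most of this RNA was not in transcripts that encode the protease, as described with the transcripts. Adamts17, Adamts18 and Adamts19 were each under 0.4 TPM, with Adamts18 at 1 and 0 counts. Adamts13, the von Willebrand factor protease made chiefly in liver, and Adamts16 were listed at 0 counts in both mice, while Vwf, the substrate of Adamts13, had 38.5 ± 0.339 TPM.

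In summed TPM over all transcripts, ADAMTS-like genes outweighed the ADAMTS proteases. The 5 genes encode the ancillary domains of the family without the protease domain, and 4 of the 5 were detected. They summed to 59.1 and 58.9 TPM, 20.8 ± 1.06% of the system, against 39.3 ± 3.99 TPM for the 19 proteases. TPM is corrected for length, and this order did not hold in expected counts, where long transcripts weigh more. There the 19 proteases together were above the 5 ADAMTS-like genes in both mice. Both sums also take in non-coding transcripts: Adamtsl5 had 49.7% of its TPM in coding transcripts in 1 transcript table and 28.8% in the other. Adamtsl5, a fibrillin-binding protein, had 32.6 and 32.4 TPM. Adamtsl4, required for anchoring the lens and known to bind fibrillin 1, had 19.5 and 19.7 TPM. Adamtsl5 and Adamtsl4 thus did not overlap, and each differed little between the mice. Adamtsl2, the gene of geleophysic dysplasia, a disorder with heart valve thickening, had 3.44 and 3.51 TPM, and Adamtsl3 had 2.86 and 2.38 TPM.

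The lysyl oxidases were a small share, 15.8 and 15.4 TPM in sum or 5.50 ± 0.359% of the system. Loxl1, the family member most tied to elastic fibres, led at 9.08 and 8.48 TPM. Loxl2, which crosslinks collagen IV and fibrillar collagens, had 3.86 and 3.97 TPM. Lox, the founding enzyme and essential for the arterial wall, had 1.57 and 1.86 TPM. The values of these 3 genes did not overlap, and Loxl1 was 5.17 ± 0.866 times Lox and 2.24 ± 0.153 times Loxl2. Loxl3 (0.89 and 0.73 TPM) and Loxl4 (0.36 and 0.35 TPM) were not detected by the 1 TPM rule. Loxl2 shared 46.2% of its 31-base words with other genes, chiefly the pseudogene Gm21451 on the same chromosome. That pseudogene was listed at 0.25 and 0 TPM, so Loxl2 counts depend on how shared reads were divided. For Loxl3, 11.6% of the exonic bases are shared with Htra2 on the opposite strand.

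The substrates and partners of the system were read from lists of pathway genes. All 10 collagens listed were detected, with Col4a1 at 86.8 ± 2.77 TPM, Col4a2 at 54.1 ± 1.34 TPM, Col3a1 at 35.3 ± 7.71 TPM and Col1a2 at 23.2 ± 0.262 TPM. Both listed chains of basement membrane collagen IV, a substrate of Mmp2 and Loxl2, were thus above the listed fibrillar collagens in TPM. Of 16 elastic fibre genes 13 were detected, with Ltbp4 at 70.6 ± 1.67 TPM and Eln, the substrate of Lox and Loxl1, at 13.1 ± 0.424 TPM. Fbn1, the microfibril protein bound by Adamts10 and Adamtsl4, had 11.3 ± 0.375 TPM. Of 12 proteoglycan and related substrates 8 were detected. Dcn reached 145 ± 11.6 TPM, Bgn 71.0 ± 2.54 TPM and Hspg2 66.0 ± 1.05 TPM. Versican (Vcan), a main substrate of Adamts1, Adamts5 and Adamts9, had 2.67 ± 0.163 TPM, below Adamts1, while Acan was at 0.0900 TPM and Ncan at 0.

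Genes that activate or bind the proteases were detected in 9 of 14. Bsg, which induces Mmp genes, had 554 ± 24.5 TPM. Furin, the convertase that activates membrane-type Mmp and ADAMTS precursors, had 47.7 ± 2.49 TPM, and Lrp1, the receptor that clears Timp3 and several proteases, 28.3 ± 0.141 TPM. Plg, the precursor of plasmin made by the liver, was at 0.00500 TPM. Of 12 genes listed as other protease inhibitors, whichever proteases they block, 7 were detected, counting the collagen chaperone Serpinh1 at 80.9 ± 1.71 TPM. The list was led by Cst3 at 383 ± 27.5 TPM, and Reck, a membrane inhibitor of Mmp2, Mmp9 and Mmp14, had 1.98 ± 0.134 TPM. Of 8 ADAM proteases, the membrane-anchored relatives that Timp3 also blocks, 5 were detected, and Adam15 was highest at 21.7 ± 1.35 TPM.

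The transcripts behind these levels did not all encode the enzyme. Of the 25 detected genes with more than 1 transcript, 22 (88.0%) had the same dominant transcript in both transcript tables. The first table was made from the aligned file and the second without it. Over all detected protein-coding genes with more than 1 transcript, the share was 75.9%. Timp4, Timp1, Loxl1, Loxl2, Lox and Adamts5 had 100% of their TPM in coding transcripts that held the family's stretch. The annotation lists no other kind of transcript for these genes, so that share was fixed in advance. Mmp15 and Timp3, which have other transcripts, had 98.8 ± 0.161% and 96.0 ± 0.792% in coding transcripts with the stretch. Mmp2 had 67.6 ± 1.68% in the transcript with the zinc-binding stretch, and the rest in a 674-base coding transcript that lacks it. In the second table these shares were 80.2 ± 4.15% and 15.4 ± 2.12%, with the remainder in non-coding transcripts.

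Timp2 was divided between a full transcript (Timp2-201) and a 718-base coding transcript annotated without the cysteine stretch (Timp2-202). The annotated coding part of Timp2-202, 430 bases, is not a whole number of codons and so is incomplete. Whether the RNA counted there lacks the stretch was not tested. Timp2-201 had 22.4 and 25.7 TPM in the first table and 24.6 and 28.4 TPM in the second. Timp2-202 had 10.6 and 12.3 TPM in the first and 27.6 and 32.5 TPM in the second. The tables thus gave near levels for the full transcript and differed by over 2-fold for the short one, whose share was 32.2 ± 0.277% and 53.1 ± 0.372%. Timp2 was the one gene of the 27 detected whose second-table level was at least 1.5 times the gene table, beside 11.1% of all detected protein-coding genes. In the other direction there were 0 of 27, beside 1.23%.

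In both tables most Adamts10 TPM lay in transcripts annotated as retained-intron or decay, not as protein-coding. Its protein-coding transcript with the zinc-binding stretch (Adamts10-201) held 13.5 ± 3.33% of its TPM in the first table and 13.4 ± 1.70% in the second, or 0.83 and 0.58 TPM in the 2 mice. Retained-intron transcripts held 59.6% and 48.5%, and a 752-base retained-intron transcript (Adamts10-213) had the highest mean in both tables. In the first table it overlapped Adamts10-212, another retained-intron transcript, with 1.02 and 0.97 TPM against 0.97 and 0.99 TPM. Adamts6 likewise had 26.2 ± 5.60% in coding transcripts with the stretch, 15.2% in the second table. Its dominant transcripts, Adamts6-202 in the first table and Adamts6-207 in the second, are both annotated as targets of nonsense-mediated decay. Adamtsl5 had 49.7 ± 1.80% in coding transcripts in the first table and 28.8 ± 0.154% in the second. Its dominant transcript changed from the coding Adamtsl5-201 to the retained-intron Adamtsl5-203. The RNA was total RNA, which also holds unspliced nuclear transcripts, and the part these play in the shares was not tested.

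**Figure D3:**
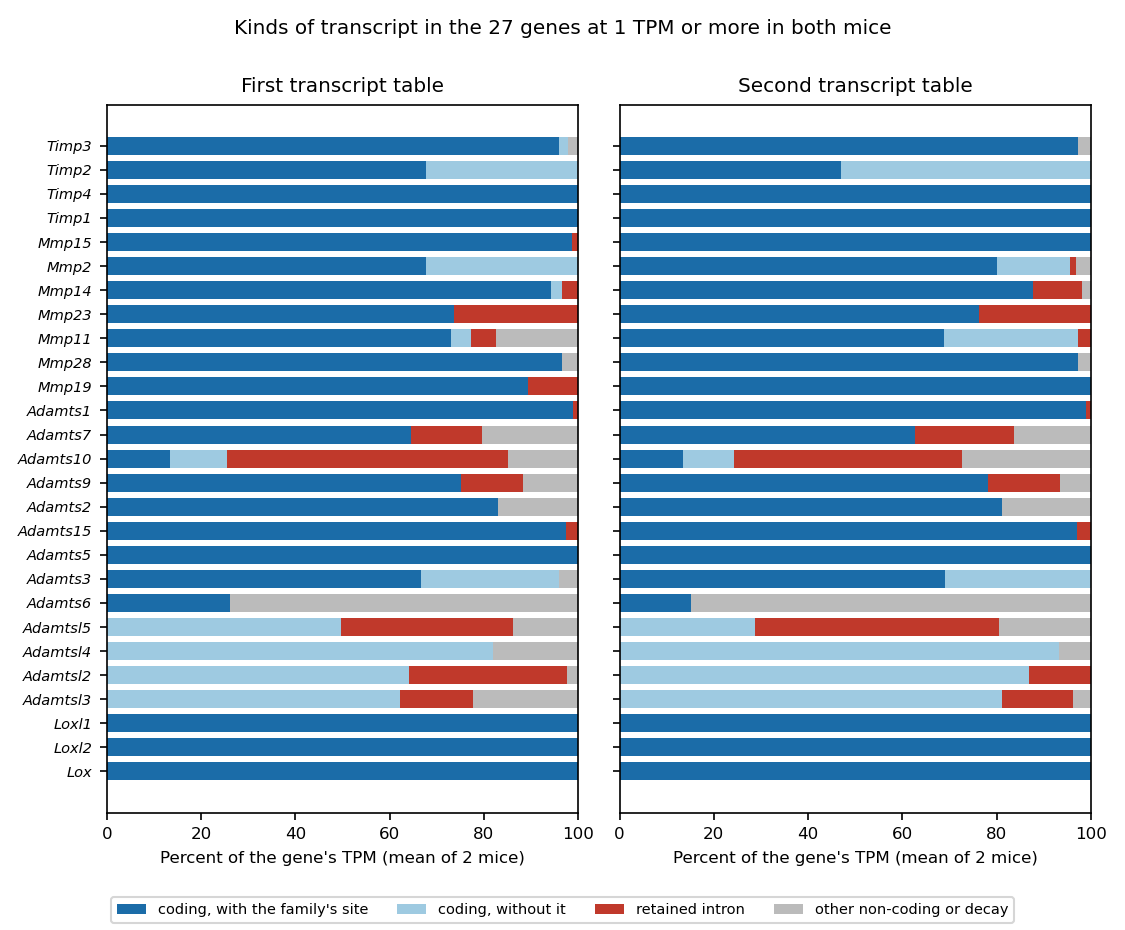
Percent of each gene's TPM (mean of 2 mice) by kind of transcript for the 27 detected genes, in the first transcript table (left) and the second (right). Adamts10, Adamts6 and Adamtsl5 stand out by long bars of retained-intron, non-coding or decay transcripts. Timp2 stands out by a coding part annotated without the family's stretch, wider on the right (53.1%) than on the left (32.2%). Adamtsl genes lack the stretch, so their coding part is drawn as coding without it.

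Between the 2 hearts, Adamts1 was the one gene of the system past 1.5-fold among genes with enough counts. Ratios were taken from TMM-scaled counts for the 32 genes with a mean of at least 50 counts. None of the 32 was 2-fold higher in replicate 1, beside 0.369% of all genes tested, and none in replicate 2, beside 0.201%. Such shares are too small for 0 of 32 to set these genes apart. At 1.5-fold there were 0 of 32 higher in replicate 1, beside 1.25%, and 1 of 32 higher in replicate 2, beside 0.827%. Within 1.2-fold stayed 25 of 32 (78.1%), a lower share than the 88.7% of all genes. The median fold in either direction was 1.08 for the 32 genes and 1.06 for all genes. The median log2 ratio, replicate 2 over replicate 1, was 0.02 for the 32 genes and 0.01 for all genes. Intervals below are exact, at 95%, and cover counting error only. There is 1 library per mouse, so no p-value is given.

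Adamts1, a protease that cells raise quickly on stimulation, was higher in replicate 2 by 0.74 on the log2 scale (0.63 to 0.85), or 1.67-fold. Its ratio was 1.65-fold in the second table and 1.88-fold with spike-in scaling, which moved the median log2 ratio of all genes to 0.18. Adamts3 followed at 0.56 (0.24 to 0.89) and Adamts8 at 0.46 (0.10 to 0.83), both higher in replicate 2. Mmp19 lay on the other side at -0.43 (-0.81 to -0.05), and nearer to no difference, at -0.25, with spike-in scaling. Small differences whose intervals left out 0 were found in both directions. Timp2 and Timp3 were higher in replicate 2, at 0.15 (0.08 to 0.22) and 0.09 (0.05 to 0.13), and Loxl1 was higher in replicate 1, at -0.15 (-0.28 to -0.02). With spike-in scaling Timp2 and Timp3 were at 0.32 and 0.26 and Loxl1 at 0.02, so the direction for Loxl1 depends on the scaling. Adamts5, the neighbour of Adamts1 on the chromosome, was at -0.11 (-0.24 to 0.01). Adamts15, the neighbour of Adamts8, was at -0.13 (-0.30 to 0.04).

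**Figure D4:**
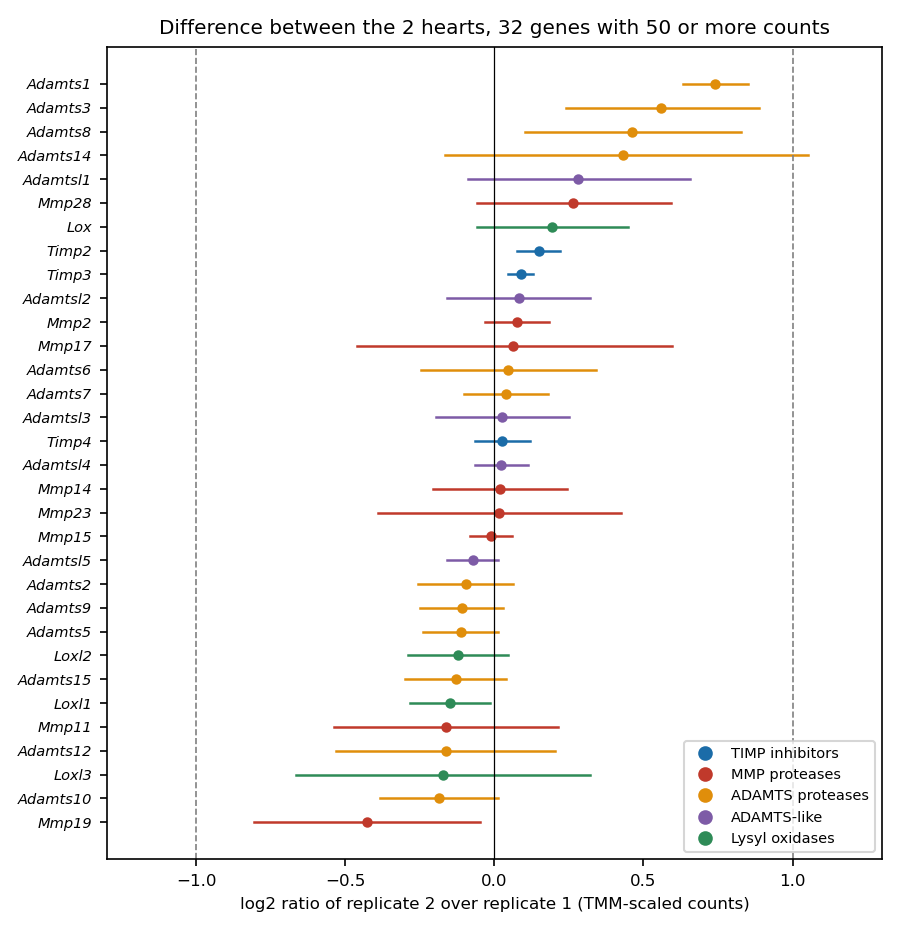
Log2 ratio of replicate 2 over replicate 1 with its 95% counting interval for the 32 genes with a mean of at least 50 counts, coloured by family. Dashed lines mark 2-fold. Adamts1 at 0.74 is the highest point and Mmp19 at -0.43 the lowest, and no point lies beyond a dashed line.

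Markers of some other cell types differed between the same libraries. Adipocyte markers, 4 of 6 detected, summed to 10.3 TPM in replicate 1 and 17.0 TPM in replicate 2, with none at 0 in both mice. Red cell markers, 5 of 6 detected, were the other way round with 20348 and 6413 TPM. Neutrophil markers, 2 of 6 detected, summed to 14.6 and 8.00 TPM, with Ly6g and Elane at 0. In the same direction as the neutrophil list, Mmp9 had 56 and 39 counts and Adamts4 28 and 16, both under the minimum mean of 50. Macrophage markers, 6 of 6 detected, went the other way, with 57.1 and 62.4 TPM in sum and a median log2 ratio of 0.13. Smooth muscle Tagln was 0.57 higher on the log2 scale in replicate 2 and Myh11 0.37, with a median of 0.04 over the 6 pericyte and smooth muscle markers. Fibroblast and endothelial markers had medians of 0.00 and -0.04. The part of these cell types in the ratios of Adamts1, Adamts3, Mmp9 and Adamts4 was not tested.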

How the data were processed

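Per the labels' descriptions, reads were assigned to mm10 with GENCODE M21. Aligner, quantifiers and the use of strand: not given in the sources used here. Per the file headers, the authors deposited a gene table and a transcript table with expected counts, TPM and FPKM. They also deposited a second transcript table with estimated counts and TPM. Their column names are those that RSEM and kallisto write. The tables assign reads to a reference made from B6, while the mice carry a CAST genome as well, and its effect on the values was not tested.

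All 55536 Ensembl genes were kept. Left out were 96 spike-ins and 26249 other entries holding 3 and 2 counts. Levels are mean TPM ± SD. Counts were rounded to whole numbers and scaled by TMM in edgeR 4.0.16 (R 4.3.3) after filterByExpr. Ratios used a prior count of 0.5 and a mean of at least 50 counts, with exact Clopper-Pearson intervals at 95%. With no molecular identifiers, the intervals and the limit of 3 counts cover counting error only. Second-table gene levels are sums over transcripts. The ratio step was tested on simulated data. Python 3.11.15 was used with numpy 2.4.6, pandas 2.3.3, scipy 1.17.1 and biopython 1.88.

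The genes and lists were chosen with earlier results of these data known. Genes with a mean of at least 1 TPM were named with both values. Lower ones were named where at 0, where closest relative of a named gene, or where the mice differed by 1.5-fold. Gene pairs, chromosomal neighbours and the 1.2-fold band were chosen after their values were seen, as were other low genes named as examples. Levels were also taken from the second table, from FPKM, from posterior mean TPM and from TPM rescaled within nuclear protein-coding genes. Ratios were also scaled by spike-ins, by total count and by the size factors of DESeq2 1.42.0. Other thresholds were tried, and each mouse was left out in turn.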

Additional observations from a re-analysis of the deposited data

How the results depend on the processing

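The number of detected genes, 27, ranged from 20 at 2 TPM to 32 by counts, and from 27 to 28 with 1 mouse left out. The median level of 0.975 TPM was 1.05 in the second table, 1.18 by posterior mean TPM and 0.770 by FPKM. It was 2.50 after rescaling to nuclear protein-coding genes, which multiplies every level by construction, and 0.925 to 0.995 with 1 mouse left out. The ratio of summed Timp to summed Mmp level, 2.14, was 2.51 in the second table, 2.03 by posterior mean TPM and 2.52 by expected counts, where long transcripts weigh more. With 1 mouse left out it was 2.07 to 2.22.

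No gene was 2-fold apart under any scaling run (TMM, DESeq2, total count, spike-ins, second table) or with a prior count of 5. With a minimum mean count of 10, 1 gene was 2-fold higher in replicate 1 (Adamts4), and with no minimum 2 were (Adamts4 and Adamts18), while 1 was higher in replicate 2 (Mmp21). Adamts18 and Mmp21 rest on 1 count each. At 1.5-fold, 1 gene was higher in replicate 2 (Adamts1). Spike-in scaling added Adamts3 (1.66-fold), Adamts8 (1.55-fold) and Adamts14 (1.52-fold) past 1.5-fold, and total count added Adamts3 (1.52-fold). The same dominant transcript was found for 5 of 7 genes at 10 TPM, and for 21 to 22 genes with 1 mouse left out. No paired analysis was possible because the labels give 1 group. Precision is limited by the 2 mice and, for Timp1, Mmp9 and Adamts4, by counts under 60.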
